A study of Mus musculus with 12 samples.

Results

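Whole brains of BALB/c mice lacking Il18, which encodes the cytokine interleukin-18, were compared with wild-type BALB/c brains at 12 weeks of age. The samples were taken by their labelled genotype and age: 3 arrays of interleukin-18 knockout mice and 3 arrays of wild-type mice, which are 6 of the 12 arrays of the series. The other 6 arrays, 3 wild type and 3 knockout at 6 weeks, entered the shared estimate of spread and showed how the array slides differ. All 4 groups were untreated, each array held total RNA of a whole brain labelled with Cy3, and the labels call the replicates biological. The sex of the mice, the knockout allele and the breeding of the line are not given in the sources used here.

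Interleukin-18 belongs to the interleukin-1 family of cytokines. It is made as an inactive precursor that caspase-1 cleaves in the inflammasome, and it acts on a receptor of the chains Il18r1 and Il18rap, which signal through the adaptor Myd88. It is best known for inducing interferon-gamma in T cells and natural killer cells, and in the brain it is made by microglia and by some neurons and ependymal cells.

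Values are log2 levels: the log2 of an array's processed signal minus the log2 of that array's own 75th percentile, so 0 is a bright probe and each unit is a doubling. Each array had 59305 spots other than controls, and 65.9% to 76.2% of them exceeded background clearly by the scanner's own flag. The arrays lay on 2 slides. Slide 1 held all 6 arrays of wild type together with replicates 1 and 2 of the 6-week knockouts, and slide 2 held 6-week knockout replicate 3 and the 3 knockout arrays at 12 weeks. At 12 weeks slide and genotype therefore cannot be told apart, and the median local background was 28 to 29 intensity units in the wild-type arrays and 40 to 47 in the knockout arrays. The 6-week knockouts were the only group on both slides, so the difference between their slide 2 array and the mean of their slide 1 arrays, called the slide difference below, was set beside every result. Brain markers were present on every array: the mean level of the 16 pan-neuronal markers was 4.99 to 5.01 in wild type and 5.25 to 5.30 in knockout at 12 weeks. Ddx3y, a gene of the Y chromosome, lay between 0.99 and 1.51 on all 12 arrays. In knockout replicates 3 and 1 at 12 weeks, the pituitary hormone transcripts Pomc, Gh and Prl stood above all other arrays, as described with the blood genes below.

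Il18 itself was lower in the knockout. Its level was 1.51, 1.63 and 1.93 in the wild-type arrays and -0.20, -0.23 and -0.32 in the knockout arrays at 12 weeks, with no overlap. The change was -1.94 ± 0.10 (SE, 3 arrays per group; limma adjusted p = 1.07e-05), a 3.83-fold reduction. At 6 weeks the wild-type arrays lay at 1.60, 1.75 and 1.52 and the knockout arrays at -0.28, -0.17 and -0.20. The slide difference was 0.02, and with slide as a term in the fit the change was -1.96 (limma adjusted p = 0.00772). The probe remained well above background on all 3 knockout arrays. Its 60 bases lie at chr9:50389761-50389820 on the plus strand (mm9), and they are shown because the check of the knockout rests on them, with the stop codon that closes a reading frame open for 18 codons in capitals.
Il18 probe: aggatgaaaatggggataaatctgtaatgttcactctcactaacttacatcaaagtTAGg
The probe thus reaches the end of the coding sequence. Whether it lies inside the deleted stretch is not given in the sources used here, so the remaining signal says nothing about how much intact transcript is left.

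Of 26226 genes tested at 12 weeks, 8781 differed between genotypes (33.5%, limma adjusted p under 0.05). In the knockout 4919 rose (18.8%) and 3862 fell (14.7%), and 12043 had an unadjusted p under 0.05. Most changes were small, with a median size of 0.45 on the log2 scale. At least 1.5-fold were 937 rises and 1640 falls, and at least 2-fold were 123 rises and 518 falls. Over all genes the median change was 0.02. Rises made up 56.0% of the calls, and 78.6% when arrays were scaled by their median, which moved the median of all genes to 0.14. Without knockout replicate 1 the count was 5291, and without wild-type replicate 2 it was 5515.

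Most of these changes ran the same way as the slide difference. Among the 8781 genes, 91.4% had the same sign in the slide difference, and in 5295 (60.3%) it was at least 0.5 times the 12-week change. Across all genes the 12-week change and the slide difference correlated at r = 0.637 (Spearman 0.666), as a description over genes that share arrays and are not independent. The 4 arrays of slide 2 stood wholly apart from the 8 of slide 1 for 5788 of the called genes (65.9%), against 7370 of all genes tested (28.1%); a call already asks that 3 of those 4 arrays differ from 3 of the 8. The slide term itself passed in 2426 genes (9.25%). With slide in the fit, 30 genes passed (0.114%), of which 10 rose and 20 fell, and 2132 had an unadjusted p under 0.05. That fit takes its slide term from 1 array against 2, so it has little precision. It called 14 genes without wild-type replicate 2, 16 without wild-type replicate 3, and 11 and 12 without 6-week knockout replicates 1 and 2. With slide as a random block 53 genes passed. Both fits called 24 genes in the same direction, which are 80% of the 30 and 0.273% of the 8781.

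**Figure D1:**
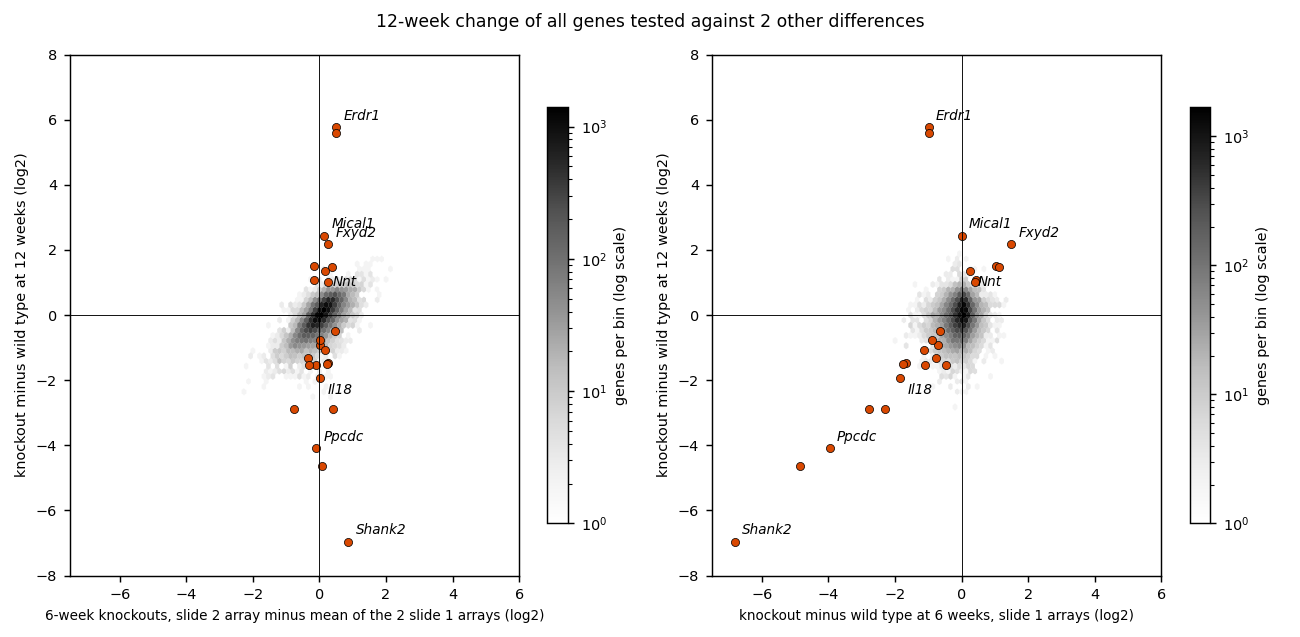
Each bin counts genes by their 12-week log2 change (vertical axis) and, on the horizontal axes, by the slide difference among 6-week knockouts (left) or the 6-week genotype change within slide 1 (right); shading is a log scale and orange points are the 24 genes called with and without slide. The cloud of genes tilts along the slide difference (r = 0.637) and less along the 6-week change (r = 0.138), while Shank2, Ppcdc and Il18 lie low in both panels.

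At 6 weeks a genotype contrast was available within slide 1, of 3 wild-type and 2 knockout arrays, none of them in the 12-week contrast. Its spread came from all 8 arrays of slide 1, the 3 wild-type arrays at 12 weeks among them. The 12-week fit in turn took its spread from all 12 arrays, so the calls at the 2 ages are not independent. The 6-week contrast called 55 genes (0.21%). Of these, 39 were also called at 12 weeks, which is 70.9% of the 55 and 0.444% of the 8781. The direction was the same for 32 and opposite for 7, among them Atf3, Fos and Dbp. The 39 became 17 without wild-type replicate 2 and 20 without wild-type replicate 3.

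Many of the genes called with and without slide were neighbours of Il18. Of the 24, 13 lie on chromosome 9 and 12 of those within 10 Mb of the Il18 probe, counting Il18. In that window 295 genes were tested and 132 were called without slide (44.7%, against 33.5% of all genes). The 6 knockout arrays of both ages stood wholly apart from the 6 wild-type arrays for 20 of the 24 genes. They did so for 1559 of all genes tested (5.94%) and 1308 of the called genes (14.9%). Of the 24, 17 were also called at 6 weeks, against 0.21% of all genes. The fit with slide itself draws on the 6-week knockout arrays, so these counts are not an independent check. Without 6-week knockout replicate 3 the slide term cannot be fitted, so that array was never left out. Each of the 6 arrays of 12 weeks and 6-week knockout replicates 1 and 2 was left out in turn. In all 8 of these fits the call with slide held for Shank2, Ppcdc, Tmem25, Bco2, Mical1 and Nnt. It held in 1 of 8 for Ccnd1 and in 2 of 8 for Inhba. It was lost for Il18 without 6-week knockout replicate 1 (adjusted p = 0.055), and each of the 8 omissions ended it for Ppan, Rpp25 and Mpeg1.

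Ppcdc, which encodes phosphopantothenoylcysteine decarboxylase of coenzyme A synthesis, had the largest fall of the 13 on chromosome 9. Its level was -3.68, -3.81 and -3.81 in wild type and -7.92, -7.88 and -7.76 in knockout, where no array was well above background. The fall was at least 4.38-fold (fitted change -4.09, adjusted p = 1.03e-07), and the slide difference was -0.10. The probe lies at chr9:57261009-57261068. Wherever a gene was not well above background in a group, the fold is such a lower bound, computed against the dimmest well-measured signal of each array.

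Tmem25, a gene of an immunoglobulin-domain membrane protein, stood at 3.33, 3.20 and 3.26 in wild type and 1.71, 1.85 and 1.74 in knockout (chr9:44601943-44602002). Bco2, the mitochondrial carotenoid-cleaving oxygenase, stood at -1.81, -1.74 and -1.67 against -3.08, -3.20 and -3.32 (chr9:50341275-50341334). Both fell, by 1.5 ± 0.08 and 1.46 ± 0.10, and both passed with slide (adjusted p = 0.000574 and 0.00473). Fam55d fell by 1.52 and passed with slide at an adjusted p of 0.0103. Rpp25, a protein subunit of ribonuclease P, fell by 1.08, from between 0.67 and 0.96 to between -0.38 and -0.18.

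Fxyd2, the gamma subunit that modulates the sodium pump, rose. Its level was 1.0, 0.88 and 0.74 in wild type and 3.09, 3.25 and 2.84 in knockout, a change of 2.18 ± 0.13 (adjusted p = 1.81e-05). Another Fxyd2 probe changed by 2.07, but it overlaps the first (chr9:45218302-45218361 against chr9:45218281-45218340), so the 2 readings are not independent. Ppan, a ribosome biogenesis factor, rose from 1.13, 1.14 and 1.20 to 2.26, 2.15 and 2.11, and it is the gene of the 13 outside the 10 Mb window. At 6 weeks within slide 1 the change of Fxyd2 was 1.49 (adjusted p = 0.0056) and that of Ppan was 0.39 (adjusted p = 0.0731).

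Cryab, the small heat shock protein alpha-B crystallin, and Sc5d, the sterol C5-desaturase of cholesterol synthesis, fell at the same time. Cryab stood at 4.65, 4.70 and 4.52 in wild type and 4.18, 4.05 and 4.15 in knockout, and its slide difference of 0.46 ran against its change of -0.50, so that the value with slide was -0.96. Sc5d stood at 2.25, 2.34 and 2.31 against 1.0, 0.94 and 0.97, a change of -1.33 with a slide difference of -0.34. The arrays of Sc5d formed 3 steps: wild type of both ages between 2.25 and 2.55, 6-week knockouts between 1.34 and 1.72, and 12-week knockouts between 0.94 and 1.0.

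**Figure D2:**
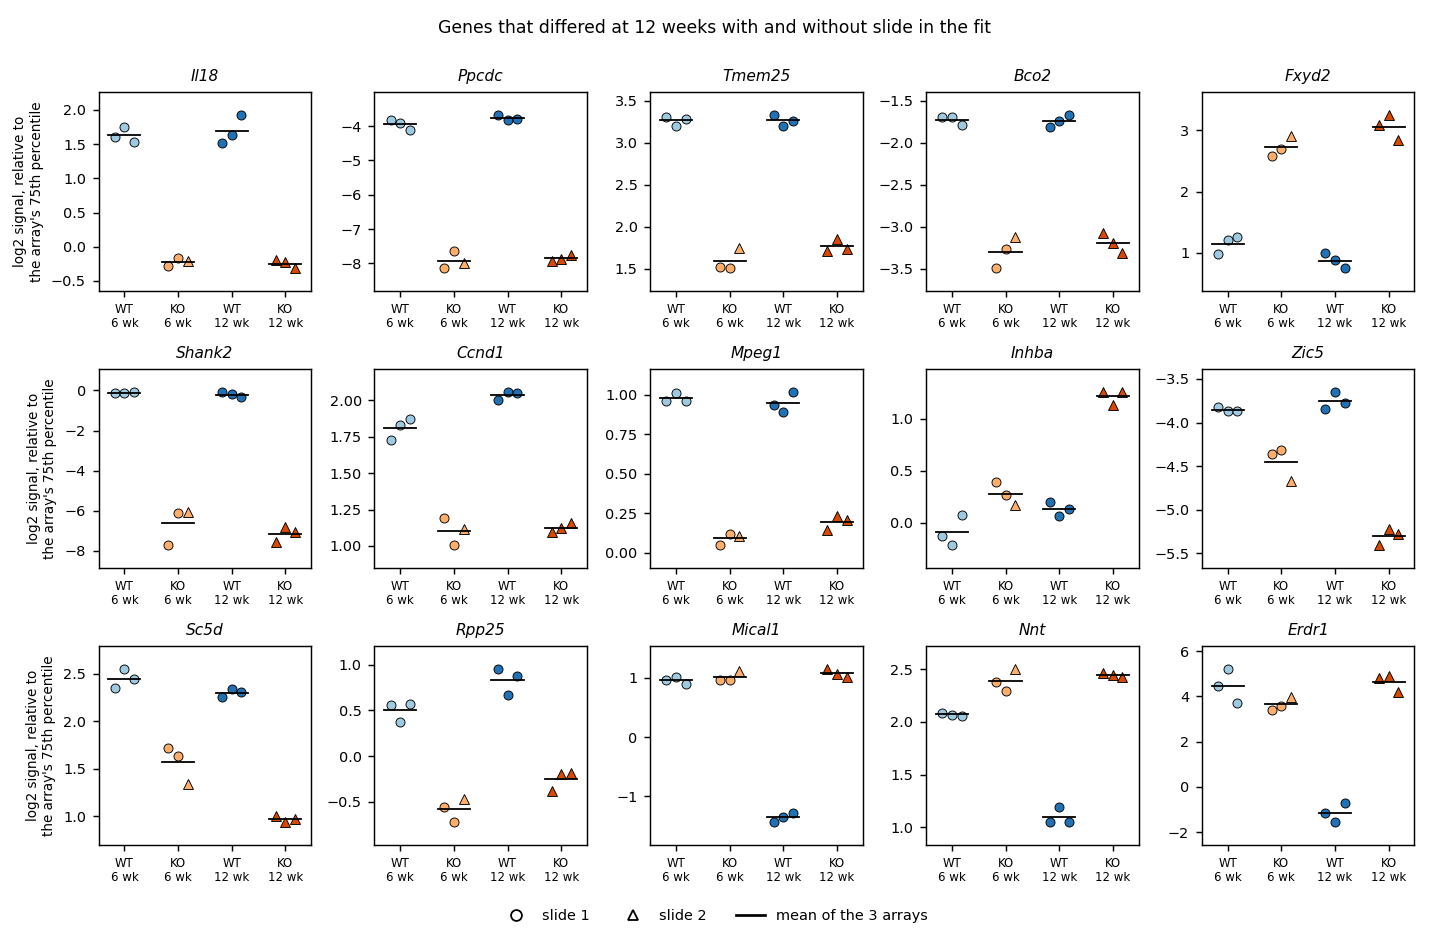
Log2 level (relative to the array's 75th percentile) of 15 genes called with and without slide, for each array of the 4 groups; circles are slide 1, triangles slide 2, and lines are means of 3 arrays. Most genes separate all knockout from all wild-type arrays, Inhba is higher in the 12-week knockouts, and Mical1 and Erdr1 are low in the 12-week wild type only. Nnt is lowest in the 12-week wild type and is also higher in all knockout than in all wild-type arrays.

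Of the genes called with and without slide, the largest fall was that of Shank2 on chromosome 7, a scaffold protein of the postsynaptic density. Its brighter probe (chr7:151610225-151610284) stood at -0.07, -0.20 and -0.34 in wild type and -7.57, -6.84 and -7.08 in knockout, where no array was well above background. The fall was at least 51.7-fold, and the knockout arrays at 6 weeks lay between -7.73 and -6.07. Another Shank2 probe gave a much smaller change. It stood at -3.40, -3.53 and -3.39 in wild type and -4.08, -3.84 and -4.31 in knockout, a change of -0.64. This probe is shown because the 2 probes of the gene disagree in size, with the stop codon that ends 19 open codons in capitals (chr7:151606981-151607040, mm9).
Shank2 probe of the smaller change: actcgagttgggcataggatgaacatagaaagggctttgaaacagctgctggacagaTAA
The probe with the large change lies downstream of it by position. The 12-week data thus hold a near-complete loss of signal at one Shank2 probe and a modest fall at another.

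Ccnd1, cyclin D1 of the cell cycle, lies 0.506 Mb from that Shank2 probe on chromosome 7. It stood at 2.0, 2.06 and 2.05 in wild type and 1.10, 1.12 and 1.16 in knockout, a fall of 0.91 ± 0.07 (adjusted p = 0.000109), with a slide difference of 0.02. Mpeg1 on chromosome 19, the pore-forming perforin-2 of macrophages and microglia, stood at 0.93, 0.89 and 1.02 against 0.14, 0.23 and 0.21. It fell by 0.75 ± 0.06 at 12 weeks and by 0.89 at 6 weeks within slide 1, and the 2 groups did not overlap at either age. In whole tissue, fewer cells of a type and less RNA per cell cannot be told apart.

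Inhba and Zic5 were called at 12 weeks and not at 6 weeks within slide 1. Inhba on chromosome 13 encodes the beta-A subunit of activin and inhibin. It stood at 0.20, 0.06 and 0.13 in wild type and 1.26, 1.13 and 1.26 in knockout, a rise of 1.09 ± 0.09 (adjusted p = 0.000207), with a 6-week change of 0.42 (adjusted p = 0.159). Zic5 on chromosome 14, a zinc finger transcription factor, stood at -3.85, -3.65 and -3.77 against -5.41, -5.22 and -5.28, a fall of 1.55 with a 6-week change of -0.48 (adjusted p = 0.0692). The difference between the ages did not pass for either gene (adjusted p = 0.12 and 0.0993).

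For some genes the 12-week wild-type arrays stood apart from all other arrays. They lay outside the range of the other 9 arrays for 1250 of the 8781 called genes (14.2%, against 5.82% of all genes tested). The 12-week knockouts lay outside the other 9 for 3338 (38.0%, against 15.6%). Mical1, an actin-oxidizing monooxygenase, stood at -1.44, -1.35 and -1.29 in 12-week wild type, and between 0.90 and 1.16 on all other arrays. Its change was 2.44 ± 0.07 (adjusted p = 1.03e-07). Nnt, the mitochondrial nicotinamide nucleotide transhydrogenase, stood at 1.05, 1.19 and 1.05 in 12-week wild type and at 2.46, 2.45 and 2.43 in 12-week knockout. At 6 weeks the Nnt arrays lay between 2.06 and 2.09 in wild type and at 2.38, 2.29 and 2.5 in knockout. For Nnt the 6 knockout arrays thus also stood above the 6 wild-type arrays. Another Nnt probe changed by 1.02 at 12 weeks. Erdr1, erythroid differentiation regulator 1, stood at -1.15, -1.55 and -0.71 in 12-week wild type and between 3.38 and 5.23 elsewhere, a change of 5.78 ± 0.36. All 3 passed with slide in the fit (adjusted p = 0.000152, 0.00441 and 0.0262), but the call of Erdr1 held in 1 of the 8 fits with an array left out.

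Ppef2 and Chrm1 were also low in the 12-week wild type, but neither passed with slide in the fit. Ppef2, a calcium-binding phosphatase known from photoreceptors, was not well above background on any 12-week wild-type array and was at least 1.96-fold higher in knockout. Chrm1, the M1 muscarinic receptor, stood at 0.97, 0.95 and 1.06 in 12-week wild type and 1.70, 1.72 and 1.66 in knockout, a rise of 0.70. Another Chrm1 probe changed by 0.02 and was not called.

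Among genes of the heat shock and unfolded protein responses, which refold proteins in the cytosol and the endoplasmic reticulum, part of the members rose in the 12-week knockouts. Of 26 tested 13 rose and none fell (50%, against 18.8% rising among all genes), with a median change of 0.33 and a median slide difference of 0.20. Members beyond the 4 named by rule in this list, in sterol synthesis and among the immediate early genes were named after their values were seen. Sdf2l1, a component of a chaperone complex of the endoplasmic reticulum, stood at -0.28, -0.19 and -0.42 in wild type and 1.01, 0.80 and 1.02 in knockout. Creld2, which is secreted under stress, stood at 2.44, 2.73 and 2.51 against 3.51, 3.35 and 3.48. Calr, the calcium-binding chaperone calreticulin, stood at 3.62, 3.64 and 3.47 against 4.29, 4.15 and 4.42. In all 3 genes the lowest knockout array was above the highest wild-type array, and the changes were 1.24, 0.89 and 0.71.

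Hspa5, the chaperone BiP, stood at 4.80, 5.12 and 4.79 in wild type and 5.66, 5.41 and 5.53 in knockout, a rise of 0.63 ± 0.11 (adjusted p = 0.00583). Xbp1, the transcription factor of the response, rose by 0.72, Ddit3 (CHOP), a factor of prolonged stress, by 0.53, and the small heat shock gene Hspb1 by 0.90. Manf, a secreted survival factor, rose by 0.44 and Pdia6, a disulfide isomerase, by 0.45, with slide differences of -0.07 and 0.01. In 4 of the 13 rises (against 60.3% of all calls) the slide difference was at least 0.5 times the change in the same direction. They were the cytosolic chaperones Hspa8, Hsp90ab1, Bag3 and Hsph1, and the small heat shock gene Hspb1 was not among them. Hspa8, Hsp90ab1 and Bag3 rose by 0.73, 0.47 and 0.36, and their slide differences were 0.78, 0.46 and 0.40. Hsph1 rose by 0.40 with a slide difference of 0.31.

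With slide in the fit none of the 13 passed, and 9 of the 26 members had an unadjusted p under 0.05, against 2132 of all 26226 genes. Sdf2l1 then changed by 0.91 (adjusted p = 0.228), Creld2 by 0.64 and Calr by 0.52 (both 0.422), whereas Hspa8 changed by -0.043. The list had 12 or 13 rises when any of the 6 arrays was left out, and 9 rises and 2 falls under quantile normalization.

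Of the 13 genes that rose, 10 had a promoter in the RefSeq table used here (GRCm38.p6, 250 bases before the gene's start). The endoplasmic reticulum stress element (CCAAT, then any 9 bases, then CCACG), searched on both strands, was found in 4 of these 10 (40%), in 2 of 12 promoters of the other members (16.7%), and in 35 of 27025 promoters in all (0.13%). The element was first described in promoters of genes of this kind, so the members are not an independent sample of it. The 4 promoters are shown because they belong to genes that rose, each 5′ to 3′ on the strand of its gene, with the matched letters in capitals. They are Hspa5 (chr2:34771840-34772089, plus), Calr (chr8:84846932-84847181, minus), Pdia6 (chr12:17266339-17266588, plus) and Creld2 (chr15:88819396-88819645, plus).
Hspa5 promoter: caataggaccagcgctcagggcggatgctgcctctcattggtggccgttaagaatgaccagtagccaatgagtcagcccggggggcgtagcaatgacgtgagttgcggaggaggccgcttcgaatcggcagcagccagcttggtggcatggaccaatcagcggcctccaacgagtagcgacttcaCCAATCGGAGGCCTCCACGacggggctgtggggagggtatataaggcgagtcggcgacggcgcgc
Calr promoter: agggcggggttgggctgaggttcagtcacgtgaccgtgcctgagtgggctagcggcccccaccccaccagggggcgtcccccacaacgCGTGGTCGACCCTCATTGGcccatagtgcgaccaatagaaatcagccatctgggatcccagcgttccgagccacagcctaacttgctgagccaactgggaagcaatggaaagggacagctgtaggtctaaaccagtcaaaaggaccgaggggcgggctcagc
Pdia6 promoter: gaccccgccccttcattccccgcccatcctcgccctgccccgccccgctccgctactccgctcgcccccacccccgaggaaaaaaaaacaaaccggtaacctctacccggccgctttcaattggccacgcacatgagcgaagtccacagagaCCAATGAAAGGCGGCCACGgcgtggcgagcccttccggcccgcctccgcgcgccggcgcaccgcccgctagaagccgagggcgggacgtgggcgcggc
Creld2 promoter: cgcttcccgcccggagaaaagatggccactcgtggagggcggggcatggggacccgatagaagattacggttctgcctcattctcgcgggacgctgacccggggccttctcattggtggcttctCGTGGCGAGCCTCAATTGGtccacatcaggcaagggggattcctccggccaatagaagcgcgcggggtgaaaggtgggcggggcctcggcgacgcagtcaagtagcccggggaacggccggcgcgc
In Hspa5 and Pdia6 the match is on the printed strand, and in Calr and Creld2 on the other. A match is a description of letters and not of binding.

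Genes of sterol synthesis moved both ways. Of 32 tested genes of cholesterol and fatty acid synthesis 9 fell and 4 rose (40.6% called, against 33.5% of all genes), with a median change of -0.05. When arrays were scaled by their median 6 fell and 6 rose, with a median of 0.07. Insig1, which holds back the sterol-sensing transcription factors, stood at -0.47, -0.50 and -0.67 in wild type and -1.29, -1.08 and -1.18 in knockout, a fall of 0.64 ± 0.09 (adjusted p = 0.00425). Its groups did not overlap, and its slide difference was 0.05.

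The enzymes that fell came from early and late steps of the pathway. Hmgcs1, a synthase of the mevalonate steps, fell by 0.31, and Idi1, an isomerase of isoprenoid units, by 0.40. Cyp51, Sc4mol and Hsd17b7, which act on lanosterol and its products, fell by 0.45, 0.43 and 0.30. In these 5 enzymes the 3 knockout arrays at 12 weeks were below the other 9 arrays. In either direction they lay outside the other 9 for 38.0% of all called genes and 15.6% of all genes tested. Hmgcs1 and Hsd17b7 lost their calls in 4 and 5 of the 6 fits with an array left out.

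Among the genes that rose were enzymes with slide differences close to their changes. Ebp (an isomerase of the sterol ring), Mvk and Pmvk (the kinases of mevalonate) rose by 0.68, 0.52 and 0.38 with slide differences of 0.64, 0.54 and 0.33. Of the 32, Sc5d alone passed with slide in the fit, and 11 had an unadjusted p under 0.05, against 2132 of all 26226 genes. Insig1 then changed by -0.68 (adjusted p = 0.38).

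Immediate early genes, which neurons induce within minutes of activity, fell more often than they rose in the 12-week knockouts. Of 24 tested, 11 fell and 2 rose (54.2% called, against 33.5% of all genes), with a median change of -0.27 and a median slide difference of 0.04. None of the 13 passed with slide in the fit, and 1 did with slide as a random block. Fos stood at 1.64, 1.87 and 1.69 in wild type and 0.40, 1.24 and 1.23 in knockout, a fall of 0.78 ± 0.19 (adjusted p = 0.0131). Atf3, a stress-induced repressor, stood at -2.17, -2.19 and -2.02 against -3.05, -3.10 and -2.88. Egr2, a zinc finger factor, stood at 0.77, 1.15 and 1.04 against -0.01, 0.46 and 0.43. In each of the 3 genes all knockout arrays were below all wild-type arrays, and knockout replicate 1 was the lowest for Fos and Egr2.

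Nr4a2, Dusp1, Junb, Klf10, Nr4a1, Sik1, Egr1 and Btg2 also fell, by between 0.28 (Egr1) and 0.88 (Btg2). Btg2 and Sik1 lost their calls in all 6 fits with a 12-week array left out. Egr1 lost its call in 5 of the 6, Klf10 and Nr4a1 in 4 and Junb in 1, while Nr4a2 and Dusp1 kept theirs. Btg2 also turned direction with slide in the fit. Egr3, whose levels were low, stood at -4.81, -5.04 and -5.41 against -3.97, -4.23 and -2.89 and rose by 1.39. Bdnf, the neurotrophin, rose by 0.30 and lost its call in 3 of the 6 fits. The number of falls went from 11 to 6 without wild-type replicate 2, knockout replicate 1 or knockout replicate 2, to 5 without wild-type replicate 3, and to 6, beside 4 rises, under median scaling. Over all genes the 3862 falls became 2307, 2350, 2744 and 2729 without those arrays, in that order, and 2028 under median scaling.

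At 6 weeks the direction was the other one. Within slide 1 the median 6-week change of the 24 genes was 0.58, and Atf3 and Fos rose by 1.54 and 1.06 (adjusted p = 0.00955 and 0.0149). Egr2 changed by 1.08 there (adjusted p = 0.0511). With slide in the fit the difference between the genotype changes at 12 and 6 weeks passed for 22 genes (0.0839%), and 2438 had an unadjusted p under 0.05. The 22 became 4 and 9 without wild-type replicates 2 and 3, and 10 and 12 without knockout replicates 1 and 3 of 12 weeks. Atf3 (-2.68, adjusted p = 0.00238) and Egr2 (-1.94, adjusted p = 0.0498) were among them.

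**Figure D3:**
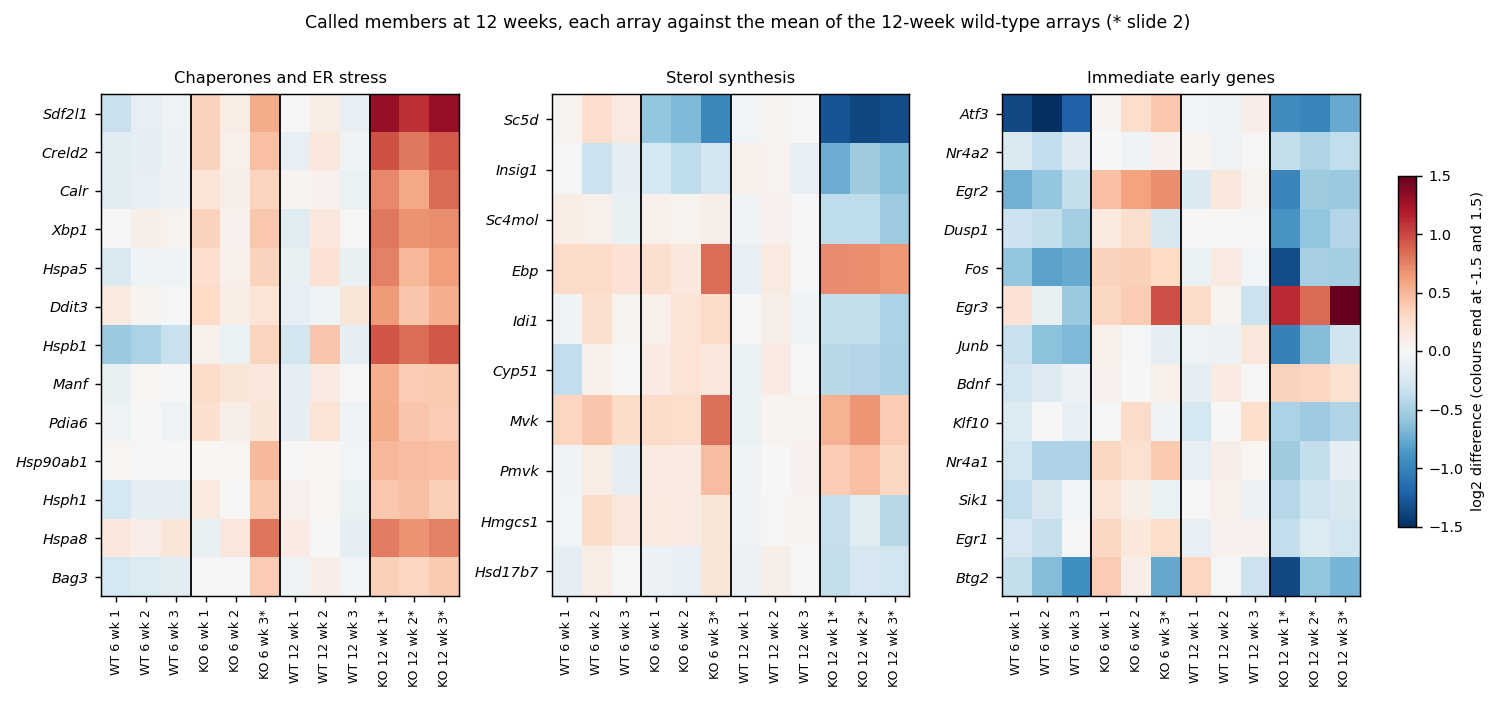
Log2 difference of every array from the mean of the 3 wild-type arrays at 12 weeks, for called members of 3 gene lists; columns are arrays, stars mark slide 2, and colours end at -1.5 and 1.5. Sdf2l1 to Pdia6 are red mainly in the 12-week knockouts, Hsp90ab1 to Bag3 also in 6-week knockout replicate 3, and Atf3, Egr2 and Fos are blue in the 6-week wild type and the 12-week knockouts.

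Of 22 tested genes that glucocorticoids induce, 8 rose and none fell (36.4%, against 18.8% rising among all genes), with a median change of 0.32 and a median slide difference of 0.23. Zbtb16 (PLZF), a transcription factor on chromosome 9, stood at 1.32, 1.26 and 1.25 in wild type and 2.79, 2.36 and 2.28 in knockout, a rise of 1.20 ± 0.14 (adjusted p = 0.00193). Plin4, a lipid droplet coat protein, stood at -1.70, -1.49 and -1.89 against 0.38, -0.36 and -0.33, a rise of 1.59. The groups did not overlap for either gene, and knockout replicate 1 was the highest for both. Cdkn1a, the cell cycle inhibitor p21, rose by 0.90 and Mt2, a metallothionein, by 0.70, with slide differences of 0.61 and 0.54. None of the 8 passed with slide in the fit, and the list had 5 rises and 1 fall under quantile normalization and 13 rises under median scaling.

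Among 22 clock genes 6 rose and 3 fell, which is 40.9% called against 33.5% of all genes, and none passed with slide in the fit. Dbp, an output factor of the clock, stood at 4.56, 4.65 and 4.93 in wild type and 5.09, 5.4 and 5.28 in knockout, a rise of 0.54 (adjusted p = 0.0135), and it fell by 1.02 at 6 weeks within slide 1 (adjusted p = 0.0231). Per2, a repressor of the clock, rose by 0.40 at 12 weeks and changed by -0.66 at 6 weeks (adjusted p = 0.082). Time of day at collection is not given in the sources used here.

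Of 12 tested markers of red blood cells 6 rose and none fell (50%, against 18.8% rising among all genes), with a median change of 0.50 and a median slide difference of 0.01, and their mean level was 1.69 to 1.92 in wild type and 2.18 to 2.63 in knockout. Hba-a2, an alpha globin gene, stood at 6.79, 6.65 and 7.12 against 8.17, 7.78 and 7.43, and the beta globin Beta-s at 0.88, 0.47 and 1.16 against 2.55, 2.20 and 1.63. Both rose, by 0.94 and 1.29, and both were highest in knockout replicate 1. Ahsp, the chaperone of alpha globin, rose by 1.87, Hba-a1 by 0.70, and Alas2 and Fech, enzymes of heme synthesis, by 0.71 and 0.32. Hba-a1 and Alas2 lost their calls when knockout replicate 1, or wild-type replicate 1 or 2, was left out, and median scaling gave 10 rises. None of the 12 passed with slide in the fit, nor with slide as a random block.

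Of 14 neutrophil markers 5 rose and none fell (35.7%, against 18.8% rising among all genes), and none passed with slide in the fit or as a random block. S100a8 stood at -3.98, -3.18 and -3.40 in wild type and -0.67, -2.10 and -0.58 in knockout, a rise of 2.40 ± 0.74 (adjusted p = 0.031). The 6-week knockouts of S100a8 spread from -4.40 to -0.86, with the slide 2 array the lowest, so the slide difference was -2.87. S100a9, its binding partner, rose by 2.17, the antimicrobial peptide Camp by 0.77, the iron-binding Lcn2 by 0.39 and the ficolin Fcnb by 1.12. Of the 14, 1 passed without knockout replicate 1, knockout replicate 3, wild-type replicate 2 or wild-type replicate 3, and 3 without wild-type replicate 1. Over all genes the 8781 calls became 5291, 6363, 5515, 6220 and 5988 in these fits, in that order. The mean level of the 14 was -2.97 to -2.94 in wild type and -2.65 to -1.99 in knockout.

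Pituitary hormone transcripts varied within the knockout group. Pomc, the precursor of adrenocorticotropin, stood at 1.64, 0.68 and 5.62 in knockout replicates 1, 2 and 3, and between 0.18 and 0.75 on the other 9 arrays. Gh, growth hormone, stood at -0.48, -6.27 and 2.86, and prolactin (Prl) at 0.06, -7.92 and 3.72, against at most -4.41 and -3.88 on the other arrays. For Pomc, Gh and Prl knockout replicate 3 was thus the highest and replicate 1 the next, and replicate 2 lay near the wild-type arrays. Cga had the same order (-1.94, -3.40 and 2.23 in replicates 1, 2 and 3). Tshb, Lhb and Fshb were also highest in replicate 3. In replicate 1 they stood at -7.17, -3.18 and -6.49, within the range of the other arrays. Neither Gh nor Prl met the rule for testing, and the change of Pomc did not pass (2.37, adjusted p = 0.0756). These genes were read as a check of the dissected tissue. The share of pituitary tissue in the results above was not tested, and leaving out knockout replicate 3 gave 6363 called genes and leaving out replicate 1 gave 5291.

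**Figure D4:**
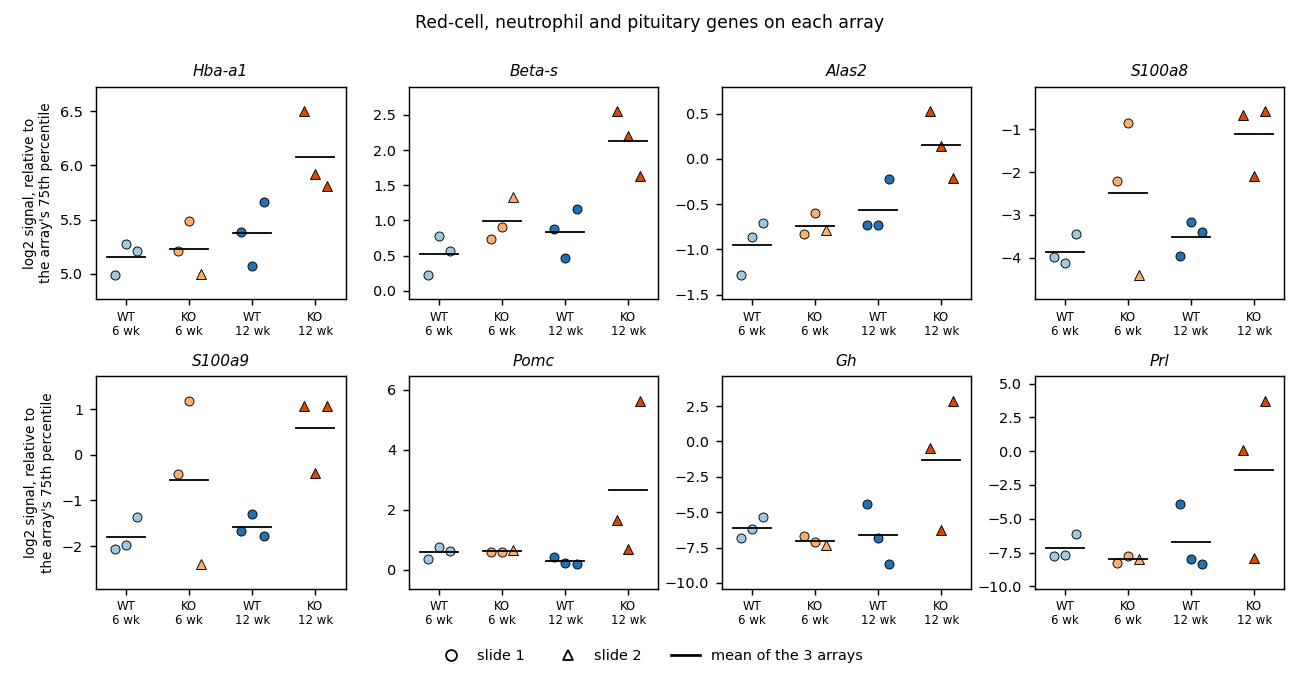
Log2 level (relative to the array's 75th percentile) of red-cell, neutrophil and pituitary genes for each array of the 4 groups; circles are slide 1, triangles slide 2, and lines are means of 3 arrays. Beta-s is highest in the 12-week knockouts, S100a8 and S100a9 are spread in both knockout groups, and Pomc, Gh and Prl are high in knockout replicate 3 and, less so, replicate 1.

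Genes of interleukin-18 processing and signalling changed in both directions. Of 18 tested 6 fell, Il18 among them, and 2 rose (44.4% called, against 33.5% of all genes). Casp4, the caspase-11 of mice that senses bacterial lipid in the cytosol, stood at -3.14, -3.12 and -3.07 in wild type and -5.09, -4.77 and -4.52 in knockout, a fall of 1.68 ± 0.17 (adjusted p = 0.000929). Another Casp4 probe changed by -1.67, but it overlaps the first (chr9:5336663-5336722 against chr9:5336658-5336717), so the 2 readings are not independent. Casp1, which cleaves the interleukin-18 precursor, stood at -0.47, -0.54 and -0.34 against -0.92, -1.03 and -0.92, a fall of 0.51. Both genes lie on chromosome 9, and their slide differences were -0.44 and -0.11.

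Il33, a cytokine of the same family that astrocytes and oligodendrocytes make, fell by 0.48. It stood at 2.44, 2.5 and 2.51 in wild type and 1.97, 2.14 and 1.90 in knockout, and all 6-week arrays of both genotypes were lower, between 1.33 and 1.77. Il1r1, the interleukin-1 receptor, fell by 0.43. Ifng, the interferon-gamma that interleukin-18 induces in lymphocytes, was not well above background on any 12-week knockout array and was at least 1.32-fold lower there, with a fitted change of -1.83 and a slide difference of -1.45. The adaptor Myd88 rose by 0.27 with a slide difference of 0.25, and Gsdmd, the pore protein gasdermin D, by 0.20. Of the 6 fits with a 12-week array left out, Myd88 lost its call in 5 and Gsdmd in all 6. The binding protein Il18bp changed by -0.08, the adaptor Pycard by 0.08, Nlrp3 by 0.20 and Il1b by 0.11, and none of these passed. With slide in the fit Il18 alone passed of the 18. Il18r1 and Il18rap did not meet the rule for testing.

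Genes of energy metabolism, ribosomes and synapses were among the lists with many rises at 12 weeks. Of 75 nuclear-encoded subunits of the respiratory chain 49 rose and 1 fell (66.7% called, against 33.5% of all genes). Their median change was 0.31 and their median slide difference 0.24. Of the 50 called, 44 had a slide difference of at least 0.5 times the change in the same direction, against 60.3% of all called genes. Cyc1, cytochrome c1 of complex III, stood at 4.82, 4.99 and 5.09 in wild type and 5.70, 5.54 and 5.70 in knockout, with 5.53 in the slide 2 array of the 6-week knockouts and 5.19 and 5.16 in the others. Atp5d, a subunit of ATP synthase, rose by 0.48 with a slide difference of 0.27.

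Of 78 cytosolic ribosomal protein genes 44 rose and none fell (56.4% called, against 33.5% of all genes), with a median of 0.26 and a slide difference of 0.19. Rps2 rose by 0.57 and Rpl29 by 0.60, with slide differences of 0.38 and 0.44. Mitochondrial ribosomal proteins (22 of 51 rose), proteasome subunits (12 of 31 rose) and genes of glycolysis (16 of 29 rose, 3 fell) had median changes of 0.23, 0.14 and 0.33. The shares called were 43.1%, 38.7% and 65.5%, against 33.5% of all genes. The median slide differences were 0.10, 0.15 and 0.24. Of the 22 called genes of mitochondrial ribosomal proteins, 14 had a slide difference of at least 0.5 times the change in the same direction. Among all called genes 60.3% did. Mrps7 rose by 0.55, Psmb5, a catalytic subunit of the proteasome, by 0.70, and Tpi1, triosephosphate isomerase, by 0.58. Their slide differences were 0.31, 0.46 and 0.37. Other probes of Mrps7 and Rps2 changed by 0.19 each and were not called.

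Of 32 presynaptic genes 13 rose and 2 fell (46.9% called, against 33.5% of all genes). Syn1, which tethers synaptic vesicles, rose by 0.53, Dnm1, the dynamin of vesicle retrieval, by 0.62, Vamp2, the vesicle SNARE, by 0.45, and Cplx1, complexin, by 0.66. Their slide differences were 0.33, 0.41, 0.17 and 0.52. No gene of these 6 lists passed with slide in the fit. Quantile normalization left 16 rises and 3 falls among the mitochondrial ribosomal proteins (median 0.10). It left 7 rises and 9 falls among the cytosolic ribosomal proteins (median -0.03), 16 and 8 in the respiratory chain (median 0.06), 7 and 2 in the proteasome (median -0.03), and 7 and 5 in glycolysis and in the presynaptic list. Without knockout replicate 1 there were 28 rises in the respiratory chain and 23 among the cytosolic ribosomal proteins, without knockout replicate 2 there were 28 and 20, and without wild-type replicate 1 there were 27 and 21. Without wild-type replicate 2 the ribosomal proteins had 29. Over all genes the 4919 rises became 2941, 3319, 3235 and 3208 in these fits, in that order.

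**Figure D5:**
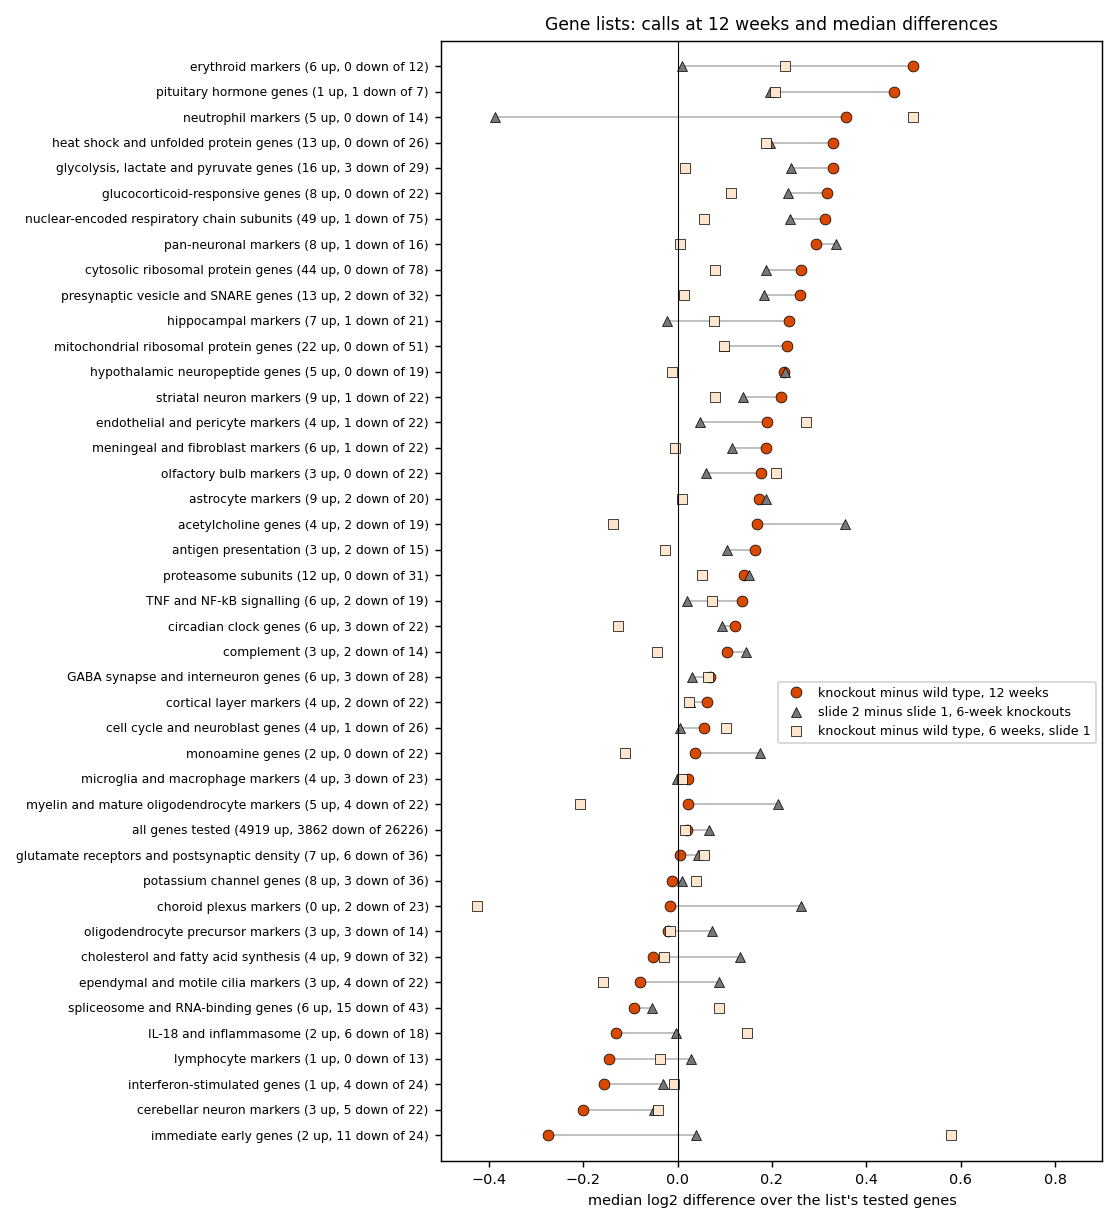
Median log2 difference over the tested genes of each list (horizontal axis) for the 12-week genotype change (orange circles), the slide difference (grey triangles) and the 6-week change within slide 1 (pale squares); names give the genes called up and down at 12 weeks. Circle and triangle lie close for the respiratory chain (0.31 and 0.24) and far apart for erythroid markers (0.50 and 0.01) and immediate early genes (-0.27 and 0.04).

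Of 43 spliceosome and RNA-binding genes 15 fell and 6 rose (48.8% called, against 33.5% of all genes). The median was -0.09, and none passed with slide in the fit. Median scaling turned the balance, with 5 falls and 11 rises (median 0.03). Srsf1 stood at 2.38, 2.52 and 2.32 in wild type and 1.71, 1.67 and 1.79 in knockout, a fall of 0.68 with a slide difference of -0.39, and another probe of it changed by -0.16 and was not called. Rbm25 fell by 0.48 and Snrpd1 by 0.46. Hnrnpc rose by 0.53 at its brightest probe, and another probe of it changed by -0.23 and was not called.

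Rises and falls were unevenly spread over probe composition and brightness. Probes with a GC content of up to 35% gave 573 rises and 1499 falls, with a median change of -0.11, and those above 50% gave 1322 and 269, with a median of 0.19. The median slide differences of the same probes were -0.03 and 0.18. With genes split into 4 equal bins by mean level, in the brightest bin 2526 rose and 401 fell (44.6% called), and in the dimmest 306 rose and 1034 fell (20.4% called). The part of composition and brightness in the list results was not tested.

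Cell type markers changed by small amounts. Neuronal markers rose in 8 and fell in 1 of 16 (56% called, against 33.5% of all genes), with a median of 0.29 and a slide difference of 0.33. Eno2, neuronal enolase, stood at 6.06, 5.97 and 5.94 in wild type and 6.65, 6.78 and 6.65 in knockout, and its slide 2 array among the 6-week knockouts read 6.73 against 6.05 and 6.05. Astrocyte markers rose in 9 and fell in 2 of 20 (55% called), and under quantile normalization in 2 and 5. Leaving out replicate 1 or 3 of either genotype left 5 rises, and over all genes it left 2941 to 3578 of the 4919 rises. Apoe, the lipid carrier, and Aldh1l1 rose by 0.58 and 0.56, and Gja1, the astrocyte gap junction protein, fell by 0.47, with slide differences of 0.41, 0.43 and -0.40.

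Myelin markers rose in 5 and fell in 4 of 22 (40.9% called, against 33.5% of all genes), with a median of 0.02. Under quantile normalization none rose and 8 fell, and under median scaling 6 rose and 2 fell. Cnp, a myelin enzyme, rose by 0.50, and Opalin, a protein of oligodendrocyte loops, stood at 0.42, 0.46 and 0.72 in wild type and -0.26, 0.06 and -0.13 in knockout, a fall of 0.64 with a slide difference of -0.07. Microglia markers rose in 4 and fell in 3 of 23 (30.4% called, below the 33.5% of all genes). Fcrls, a receptor of homeostatic microglia, rose by 0.47 with a slide difference of 0.11, and Tmem119 rose by 0.35, while Mpeg1 fell. Csf1r, the receptor for colony stimulating factor 1, rose by 0.29, but it lost its call in 4 of 6 fits with an array left out, and its other probes changed by 0.10 and 0.14 and were not called. Of the 23, Mpeg1 alone passed with slide in the fit. The counts were 4 rises and 1 fall of 22 for endothelial cells and pericytes, none and 2 of 23 for choroid plexus, 3 and 4 of 22 for ependyma, 6 and 1 of 22 for meninges, and 1 and none of 13 for lymphocytes. In that order the shares called were 22.7%, 8.70%, 31.8%, 31.8% and 7.69%, each below the 33.5% of all genes. Ccdc153, a cilia gene on chromosome 9, stood at -0.04, 0.32 and 0.44 against -0.69, -0.63 and -0.84, a fall of 0.96, and it fell by 1.70 at 6 weeks within slide 1 (adjusted p = 0.0135).

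Several of the largest changes at 12 weeks were as large between the slides of the 6-week knockouts. Lingo1, an inhibitor of axon growth and myelination that lost its call when any 1 of the 6 arrays was left out, stood at 0.37, 0.05 and 0.06 in wild type and -1.45, -1.46 and -1.5 in knockout. Its slide 2 array at 6 weeks read -1.70 and the 2 slide 1 arrays 0.53 and 0.50. Rnu1b6, a U1 small nuclear RNA, and Rpph1, the RNA of ribonuclease P, rose by 1.73 and 1.75 with slide differences of 1.62 and 1.68. Cbx7, a Polycomb protein, Lilra5, Rap1a and Pggt1b fell by 1.82, 2.34, 1.75 and 1.70, with slide differences of -2.18, -2.01, -1.59 and -1.62. Ubxn4 fell by 1.85 and Reg1 by 1.56, with slide differences of -1.40 and -0.98. None of these passed with slide in the fit.

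A few large rises were uneven among the knockout arrays or unlike the slide difference. Cyp2a4, a cytochrome P450, rose by 1.79, with knockout replicate 3 at 0.12 and the others at -1.97 and -2.55, and it was not called without that replicate or without wild-type replicate 1 or 2. Ifna7, an interferon alpha gene, rose by 1.73, with knockout replicate 2 at -2.11 and the others at -4.57 and -4.24, and it was not called without wild-type replicate 1 or 2. Tox4 stood at 1.34, 0.52 and 0.72 in wild type and 2.86, 1.90 and 2.98 in knockout, a rise of 1.72 with a slide difference of 0.29, and the 6-week wild-type arrays lay between 1.77 and 2.49. Another Tox4 probe changed by 0.024 and was not called, and none of Cyp2a4, Ifna7 and Tox4 passed with slide in the fit.

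Some genes were well above background in one genotype only. Abhd3, a phospholipase, was at least 3.41-fold and Bahcc1 at least 2.79-fold lower in knockout, and both had slide differences in the same direction of -2.78 and -1.54. Btnl5 was at least 2.17-fold and Treh, the trehalase of chromosome 9, at least 1.97-fold higher in knockout. Treh had no wild-type array above background at 12 weeks and stood at -5.17, -5.58 and -4.94 in knockout.

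Other probes of the same genes gave a partial check. Among the called genes 2533 had another tested probe, which had the same sign in 1997 (78.8%), was itself called in the same direction in 1089 (43.0%) and was called in the opposite direction in 95. Among genes not called the sign was shared in 61.1% of 4469. For the genes called with and without slide it was shared, and called, in 6 of 6. Probes of a gene can overlap, as those of Fxyd2 and Casp4 do.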

How the data were processed

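Total RNA of 12 mouse brains was labelled with Cy3 and hybridised to Agilent 1-colour arrays. The submitters' processing notes name Feature Extraction 10.7.3.1. The intensity values (processed signal) and the flags for background, outliers and saturation are those the authors deposited, per the file headers, and the deposited value table, on the linear scale, held the same intensities to within 0.498%. Probe positions are those of the file headers (mm9), and no mm9 annotation was used, so exons and introns are not stated.

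The log2 intensity minus each array's log2 75th percentile over non-control spots was averaged over spots of a probe, without outlier spots. Probes well above background on all arrays of either 12-week group were kept (36755), and each gene was read from its brightest probe. limma 3.58.1 (R 4.3.3) fitted 4 group means over all 12 arrays, with Benjamini-Hochberg adjustment over 26226 genes and a two-sided adjusted p under 0.05 as the call. A second fit added the slide as a term. The steps were tested on simulated data. P-values measure the spread between arrays, and 3 arrays a group limit the precision.

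Genes named by rule were those called with and without slide, those with the largest changes in each direction, those wholly below background in 1 group, and the most changed members of each list; others were named after their values were seen. Some genes are not reported here. The gene lists and the groups compared were chosen with earlier results of these data known. Symbols are those of the array design, of which 1838 differ from the current RefSeq symbol. Promoters are from RefSeq (GRCm38.p6). Alternatives tried were other scalings and background corrections, filters, slide and replicate blocks, other variance models and leaving out each array.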

Additional observations from a re-analysis of the deposited data

Results flagged for a closer look

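The genotype change differed between 12 and 6 weeks for 22 genes, by a test of the difference itself (limma with slide as a term, 12-week minus 6-week change, adjusted over all genes). Of these, the 5 described in the results are given here. The difference was 2.29 for Mical1 (adjusted p = 0.000108), 6.27 for Erdr1 (adjusted p = 0.0184) and 0.91 for Nnt (adjusted p = 0.0184). In these 3 genes the 12-week wild-type arrays were below all 9 other arrays. The difference was -2.68 for Atf3 (adjusted p = 0.00238) and -1.94 for Egr2 (adjusted p = 0.0498), the immediate early genes that lay higher in the knockout at 6 weeks and lower at 12 weeks. The slide term behind these values rests on 6-week knockout replicate 3.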

How the results depend on the processing

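The fall of Il18 passed under each alternative tried for the fit without slide and with slide as a block, between -2.03 and -1.82 with a 12-week array left out; with slide in the fit and 6-week knockout replicate 1 left out it did not (adjusted p = 0.055). The 8781 genes became 30 with slide as a fixed block, 53 with slide as a random block (estimated correlation 0.36) and 2577 at 1.5-fold or more, and 5291 to 6363 with 1 array of 12 weeks left out. The 30 genes with slide in the fit became 6 with a replicate block added, 47 with array weights, and 11 to 26 with an array left out. The 22 genes that differed between ages became 46 with a robust variance trend and 4 to 18 with an array left out. The slide difference among 6-week knockouts passed in 2426 genes, in 964 under median scaling and in 1543 under quantile normalization. The 39 genes called at both ages became 75 with normexp background correction, 64 with the filter over all 12 arrays, 129 with the robust trend, and 17 to 39 with an array left out. With slide as a fixed block Hspa8 (-0.043), Bag3 (-0.047), Mvk (-0.019), Btg2 (0.14), Lingo1 (0.59) and Cbx7 (0.36) turned direction. The fixed block itself removes the slide difference; for the other alternatives the cause was not tested. Replicate numbers did not pair the arrays (correlations 0.02, -0.04 and -0.08), and a replicate block gave 7653 genes. Precision is limited by 3 arrays a group, by 1 array behind the slide term, and by background for genes near it.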
